A study of Mus musculus with 15 samples.

Results

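Matricellular genes of valve and vessel wall were followed through the cell classes of the mouse heart at E14.5. They were chosen by name and are 9 of the 16809 genes in the UMI table: Postn, Tgfbi, Tnc, Thbs1, Sparc, Smoc2, Ctgf, Cyr61 and Cthrc1. The 15 libraries were made from whole hearts of the C57BL6/N background by Drop-seq, a droplet method in which a barcoded bead tags the polyadenylated RNA of one cell. The KO libraries were homozygous for a knockout of Adamts19, which encodes a secreted metalloprotease. The tm4b allele is that of KO replicates 5 to 8, from litter 7. The tm4a allele is that of KO replicates 1 to 4, replicate 1 from litter 5 and replicates 2 to 4 from litter 6. The 7 WT libraries come from litters 1 to 4. No litter holds both genotypes or both alleles, so litter cannot be told apart from either. All 8 KO libraries share a flow cell with WT replicate 5, and the other 6 WT libraries were run on other flow cells. The labels give neither the number of embryos per library nor the part of Adamts19 that each allele deletes.

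Matricellular proteins are secreted into the extracellular matrix, where they bind cells, growth factors and fibres and tune how cells respond to the matrix, rather than bearing load themselves. In the developing heart, cushion mesenchyme turns into layered valve leaflets while fibroblasts and mural cells build the interstitium and the vessel walls, and several of these proteins mark those tissues. Postn in particular is known from mice that lack it to be needed for normal valve maturation, and Ctgf and Cyr61 are textbook targets of the YAP and TAZ co-activators.

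Libraries held 5477109 to 10105950 UMIs (KO) and 6215439 to 11340443 UMIs (WT). Of 55152 barcodes, 28394 KO and 22381 WT cells were kept, and 87 of 55053 distinct barcode sequences occurred in more than 1 library. Clusters were built and named from marker genes without the 9 genes, each class being called like the cell type whose markers it held, and UMIs were summed per library and class. Levels are in CPM, the gene's UMIs as a proportion of all UMIs of that library's class, scaled to the same total everywhere. The classes held 4332 valve interstitial-like, 6743 fibroblast-like, 3357 mural-like, 5589 endocardial-like, 1653 valve endothelial-like, 1532 vascular endothelial-like and 19078 cardiomyocyte-like cells. The top 10 genes of the valve interstitial-like cluster held 2 of its own markers (Papss2, Sox9) and 2 fibroblast markers (Dpt, Lum). At a finer clustering (resolution 1.5 in place of 1.0), 37.3% of the mural-like cells went to fibroblast-like clusters and 12.6% of the fibroblast-like cells to valve interstitial-like ones. Adamts19 stood at 6.61 ± 1.28 CPM over all cells in KO and 29.4 ± 12.4 CPM in WT libraries (SD, n = 8 and 7), and LacZ at 0 UMIs in every WT library. A level falls both when fewer cells of a mixed class express a gene and when each holds less of its RNA, and these cannot be told apart in the sums.

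Promoter sequence was read for the genes that differ in the comparisons below and that the RefSeq table (GRCm38.p6, the same assembly as the mm10 build of the labels) holds: the 250 bases before the start of Cyr61, of Tnc (first start site) and of Postn (second start site). Capitals mark letters that match a searched motif, the TEAD site GGAATG, which reads CATTCC on the other strand, or the TATA box TATAAA. The Cyr61 window is chr3:145649986-145650235 on the minus strand, the Tnc window chr4:64047016-64047265 on the minus strand, and the Postn window chr3:54360857-54361106 on the plus strand. Each is written 5′ to 3′ toward the start site.
Cyr61: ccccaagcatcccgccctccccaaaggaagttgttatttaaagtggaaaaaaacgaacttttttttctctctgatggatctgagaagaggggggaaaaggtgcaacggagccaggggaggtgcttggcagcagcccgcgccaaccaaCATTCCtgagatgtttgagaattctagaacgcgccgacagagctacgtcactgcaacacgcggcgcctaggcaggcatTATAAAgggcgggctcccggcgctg
Tnc: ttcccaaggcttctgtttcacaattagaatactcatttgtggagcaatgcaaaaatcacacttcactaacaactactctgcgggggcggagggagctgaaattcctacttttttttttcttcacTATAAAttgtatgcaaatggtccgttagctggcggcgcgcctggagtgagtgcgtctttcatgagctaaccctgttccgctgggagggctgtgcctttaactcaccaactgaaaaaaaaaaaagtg
Postn: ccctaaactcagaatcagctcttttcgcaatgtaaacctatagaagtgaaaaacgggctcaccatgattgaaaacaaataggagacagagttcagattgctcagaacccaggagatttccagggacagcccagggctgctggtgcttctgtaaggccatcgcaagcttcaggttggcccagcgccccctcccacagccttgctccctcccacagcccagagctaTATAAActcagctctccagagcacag
The Cyr61 window held a TEAD match from -103 to -98 and a TATA box from -25 to -20 before the start. The Postn window held a TATA box from -26 to -21, and the Tnc window one from -126 to -121. Among the windows not printed, that of the second Tnc start site held TATAAA from -205 to -200. That of the first Postn start site held no match. Over 27025 promoter windows of the table, searched on both strands, TATAAA occurred in 13.0%, GGAATG in 12.6%, the AP-1 site TGANTCA in 6.87%, the NF-Y box CCAAT in 34.5% and the CArG box in 1.40%. None of the last 3 motifs was found in the 7 windows of the 5 genes with an entry, which also include Sparc and Tgfbi. A match is a stretch of letters only and says nothing about binding in these hearts.

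In WT hearts the 9 genes fell into different orders over the 7 classes, and 6 of them peaked in the leaflet mesenchyme, the valve interstitial-like cells. Neighbouring classes in each gene's order were compared within libraries on log2(CPM + 10), with an exact permutation test that flips signs (two-sided). Of 54 neighbour pairs, 27 passed an adjusted p of 0.05, each of them with all 7 libraries in the same order and the smallest p that 7 libraries allow (0.0156, adjusted 0.0313). The order itself was read from the same libraries, so the tests speak only to the steps between neighbours.

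Postn, encoding periostin, a fasciclin-domain protein of collagen-rich tissue, separated more neighbouring classes than any other member, with 5 of 6 steps passing. It lies on GRCm38 chromosome 3, 54361109 to 54391037, plus strand, with 22 exons in its longest transcript (GENCODE annotation). Valve interstitial-like cells held 4473 ± 519 CPM in KO and 3962 ± 655 CPM in WT libraries. Fibroblast-like cells followed with 2081 ± 363 CPM in KO and 2184 ± 552 CPM in WT, then valve endothelial-like (1001 ± 200 and 978 ± 165), mural-like (754 ± 157 and 696 ± 155) and endocardial-like cells (535 ± 82.9 and 533 ± 57.1). The step that did not pass was the last, between vascular endothelial-like (53.2 ± 37.3 CPM in KO, 86.0 ± 76.3 in WT) and cardiomyocyte-like cells (23.3 ± 9.99 and 37.0 ± 17.9; adjusted p = 0.0964). After thinning each cell to 1000 UMIs, 89.3% of KO and 86.9% of WT valve interstitial-like cells had a Postn UMI, against 36.8% and 36.6% of endocardial-like cells. In macrophage-like cells, which should lack it, the shares were 4.76% in KO and 8.66% in WT, at median depths of 1294.5 and 1471 UMIs.

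Tgfbi, encoding a second fasciclin-domain protein that TGF-beta induces and that binds integrins and collagen, was also highest in the valve mesenchyme. It lies on chromosome 13, 56609523 to 56639562, plus strand. Valve interstitial-like cells held 716 ± 173 CPM in KO and 796 ± 181 CPM in WT libraries, and the next class, endocardial-like cells, 183 ± 31.6 and 201 ± 45.5 CPM, a WT step of 1.93 log2 that passed. Endocardial-like, mural-like and fibroblast-like cells did not differ beyond their spread (adjusted p = 0.359 and 0.534). Macrophage-like cells held 81.2 ± 35.7 CPM in KO and 141 ± 49.5 CPM in WT.

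Tnc, encoding tenascin-C, an anti-adhesive hexameric glycoprotein of remodelling matrix, had a first step of 0.60 log2 in WT, from valve interstitial-like to fibroblast-like cells, which passed. It lies on chromosome 4, 63959785 to 64047015, minus strand, with 26 exons. It stood at 254 ± 112 CPM in KO and 232 ± 73.9 CPM in WT valve interstitial-like cells and at 204 ± 58.9 and 149 ± 44.2 CPM in fibroblast-like cells. Vascular endothelial-like (101 ± 36.6 CPM in KO, 98.8 ± 49.9 in WT) and mural-like cells (194 ± 91.7 and 85.7 ± 32.7) came next. The steps from fibroblast-like down to mural-like cells did not pass (adjusted p = 0.114 and 0.761), and endocardial-like cells were close to the bottom at 6.39 ± 2.78 CPM in KO and 6.96 ± 2.84 CPM in WT.

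Thbs1, encoding thrombospondin-1, which activates latent TGF-beta and signals through CD36 and CD47, held 640 ± 84.5 CPM in KO and 797 ± 280 CPM in WT valve interstitial-like cells. It lies on chromosome 2, 118111876 to 118127133, plus strand. Fibroblast-like (434 ± 114 and 480 ± 157 CPM), mural-like (354 ± 64.6 and 328 ± 157) and valve endothelial-like cells (200 ± 38.9 and 212 ± 67.4) followed, and the steps between these 3 did not pass (adjusted p = 0.0511 and 0.144). It was also present outside the 7 classes, at 446 ± 168 CPM in KO and 669 ± 165 CPM in WT macrophage-like cells and at 538 ± 182 and 342 ± 173 CPM in epicardial-like cells.

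Sparc and Smoc2, related calcium-binding proteins of the same family, were both highest in mural-like cells among the 7 classes. Sparc, which binds collagen and basement membrane, lies on chromosome 11, 55394500 to 55423183, minus strand. It held 6111 ± 766 CPM in KO and 5560.0 ± 1157 CPM in WT mural-like cells, 4357 ± 424 and 3872 ± 689 CPM in fibroblast-like cells, and was detected in every class, down to 924 ± 88.6 and 892 ± 133 CPM in cardiomyocyte-like cells. Epicardial-like cells, which are not among the 7 classes ordered, held still more (9168 ± 1043 CPM in KO and 7966 ± 1748 in WT). Smoc2 (chromosome 17, 14279506 to 14404790, plus strand) was far narrower, at 247 ± 83.9 CPM in KO and 300 ± 61.2 CPM in WT mural-like cells, 262 ± 63.9 and 263 ± 68.0 CPM in epicardial-like cells and 56.9 ± 18.1 and 56.9 ± 13.3 CPM in fibroblast-like cells. Valve interstitial-like cells, the class where 6 of the other genes peak, held 4.85 ± 4.00 CPM of Smoc2 in KO and 8.96 ± 8.09 CPM in WT.

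Within the muscle, Smoc2 sat in 1 cluster. The cardiomyocyte-like cluster whose leading genes include Vsnl1 and Sln held 261 ± 195 CPM in KO (31.9 to 600.2) and 181 ± 127 CPM in WT (79.4 to 451), while the other 5 cardiomyocyte-like clusters had means of at most 24.3 CPM in KO and 18.4 CPM in WT. The fibroblast-like cells also divided. Their cluster led by Lsp1, Aspn and Spon2 held 78.2 CPM of Smoc2 in KO (31.3 to 93.3) and 78.5 CPM in WT (54.1 to 112), with 74.9 ± 16.4 and 72.2 ± 19.3 CPM of Cthrc1. The one led by Tcf21, Tpx2 and Ch25h held 34.2 ± 18.4 and 33.6 ± 15.2 CPM of Smoc2, with 212 ± 55.6 and 208 ± 97.7 CPM of Cthrc1. These cluster values are descriptions with no test.

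Ctgf and Cyr61, 2 members of the CCN family that bind integrins and heparan sulfate, did not share an order. Ctgf (chromosome 10, 24595442 to 24598683, plus strand) was highest in valve interstitial-like cells (375 ± 147 CPM in KO and 335 ± 130 in WT) and mural-like cells (309 ± 226 and 302 ± 156), which did not separate (adjusted p = 0.54). Cardiomyocyte-like cells came next, at 180 ± 34.5 CPM in KO and 133 ± 30.3 CPM in WT, and the step down to fibroblast-like cells did not pass (adjusted p = 0.0511). Cyr61 (chromosome 3, 145646976 to 145649981, minus strand, 5 exons) stood at 944 ± 270 CPM in KO and 1065 ± 440 CPM in WT valve endothelial-like cells, the surface layer of the leaflets, which had its highest mean in WT. Valve interstitial-like cells held 1027 ± 358 CPM in KO, where they had the highest mean, and 657 ± 217 CPM in WT. In the WT order mural-like (816 ± 388 and 528 ± 229) and fibroblast-like cells (512 ± 160 and 396 ± 116) followed, and none of the first 3 steps in WT passed (adjusted p = 0.0511, 0.0964 and 0.0511). Endocardial-like cells were last in WT, at 116 ± 47.2 CPM, against 265 ± 143 CPM in KO.

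Cthrc1, encoding a secreted collagen triple helix repeat protein that limits collagen deposition and takes part in planar Wnt signalling, had the largest first step of the genes that peak in the valve. It lies on chromosome 15, 39076932 to 39087121, plus strand. Valve interstitial-like cells held 1160.3 ± 209 CPM in KO and 931 ± 193 CPM in WT, mural-like cells 274 ± 121 and 225 ± 82.6 CPM, a WT step of 2.04 log2. Its lowest classes, endocardial-like (10.5 ± 3.14 and 16.7 ± 3.95 CPM) and cardiomyocyte-like (5.31 ± 1.71 and 6.67 ± 4.81), lay under the 22.7 ± 51.9 CPM in KO and 35.7 ± 36.4 CPM in WT of macrophage-like cells.

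**Figure D1:**
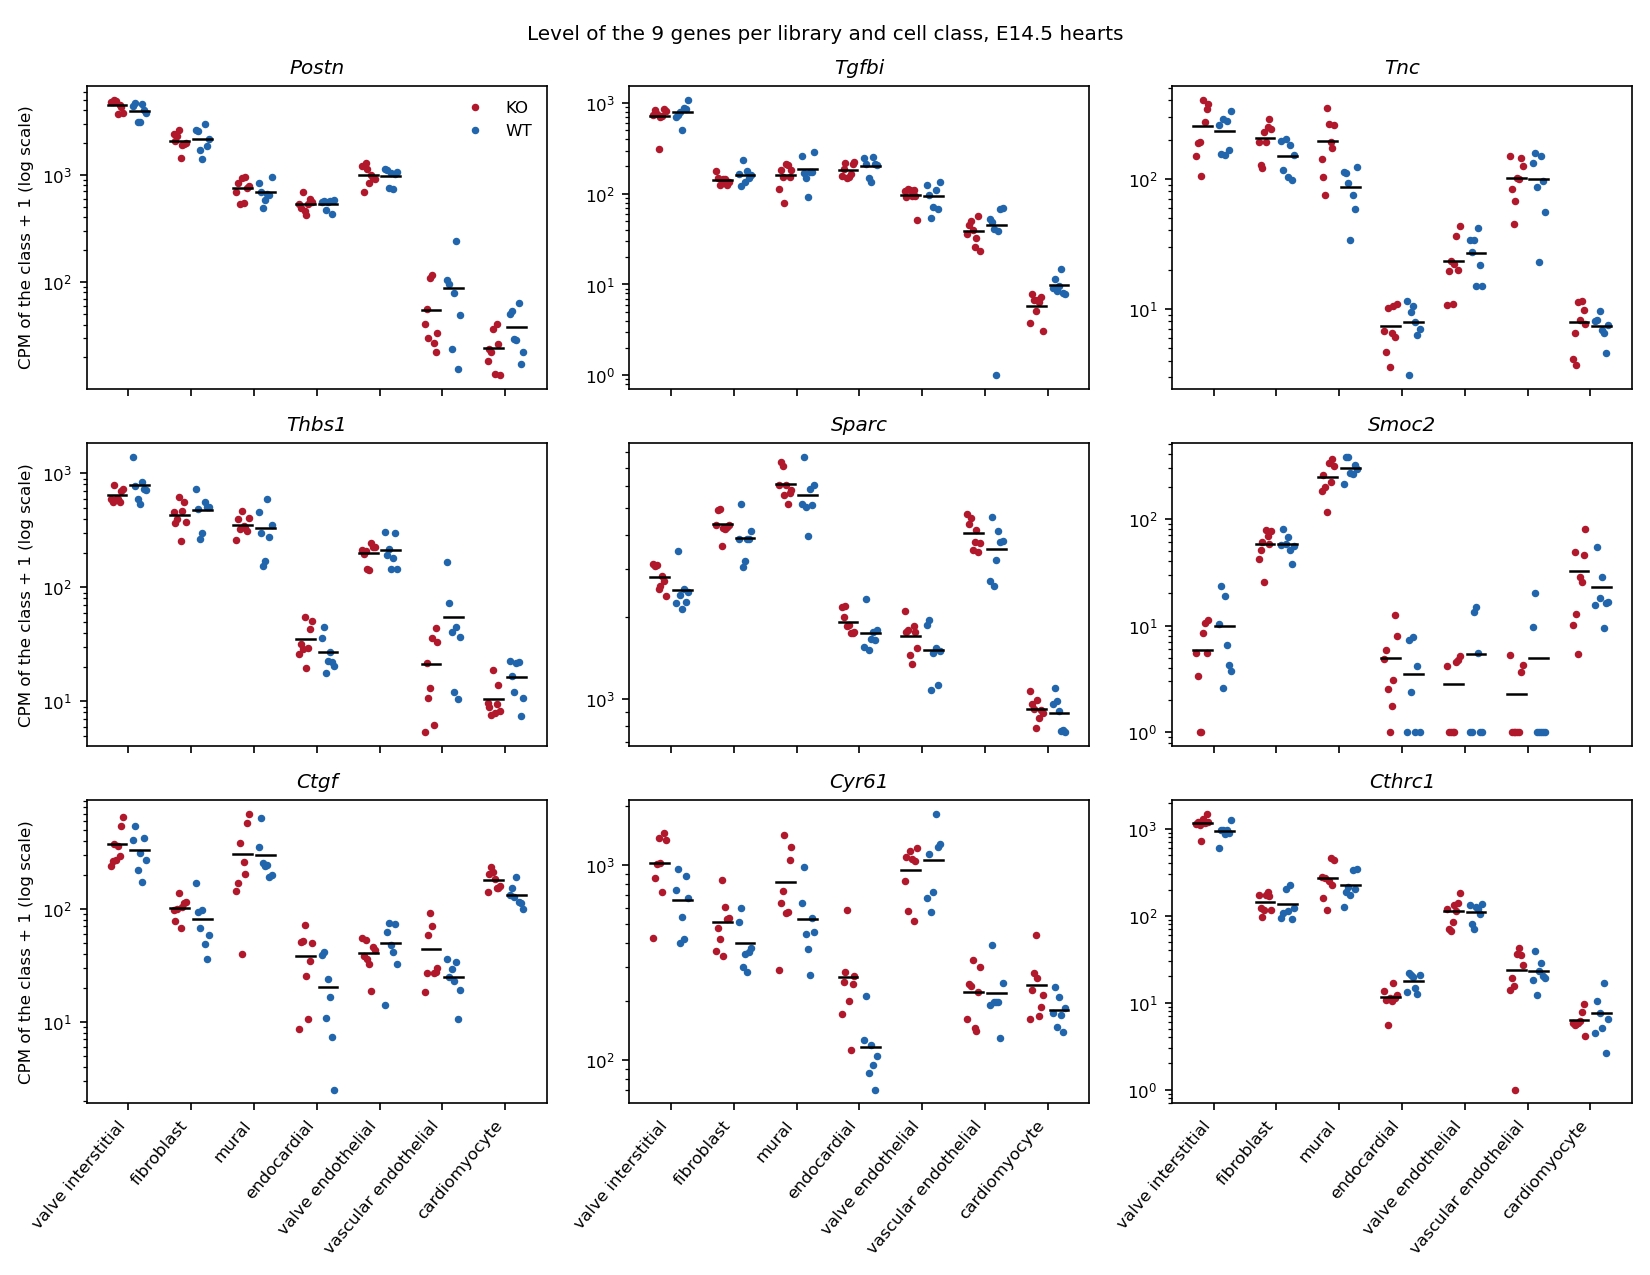
Level of the 9 genes in each of 15 libraries by cell class; the vertical axis is CPM of the class plus 1 on a log scale, red points are the 8 KO and blue points the 7 WT libraries, and black bars are group means. Postn, Tgfbi, Thbs1, Ctgf and Cthrc1 are highest in valve interstitial-like cells of both genotypes, as is Tnc, while Sparc and Smoc2 are highest in mural-like cells among the 7 classes, and the Cyr61 points of KO lie mostly above those of WT in endocardial-like cells.

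The genes most like each member over the 49 WT class sums (7 classes in 7 libraries) were taken from 7306 genes with a mean of at least 20 CPM, by Pearson correlation of log2(CPM + 10). These sums share libraries and depth, so the values are descriptions. Postn was most like Mxra8 (0.93), Ift74 and Ugdh, and Cthrc1 most like Ugdh (0.94), Nfatc4 and Serpinf1. Tgfbi was most like Fcgrt (0.90), Bgn and Mmp2, Tnc most like Rab31 (0.87), Piezo2 and Meox1, and Thbs1 most like Nfix (0.94), Slc39a6 and Ptgis. Sparc was most like Cald1 (0.89), Pls3 and Sh3bgrl, and Smoc2 most like Osr1 (0.90), Map3k7cl and Ogn. Ctgf was most like Mpped2 (0.88), Dkk3 and Ednra, and Cyr61 most like Bmp4 (0.81), Slc1a3 and Nkd1. No member was among the 3 nearest genes of another.

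Few differences in these genes between KO and WT hearts passed the test. KO over WT, 1 of 61 tested member and class pairs passed an adjusted p of 0.05 (edgeR), and 12 had an unadjusted p under 0.05, 8 of those higher. The share of all genes with an unadjusted p under 0.05 is not given here. Over all cells 0 of 9 members passed, where 0.208% of 13445 tested genes did (1 member with an unadjusted p under 0.05, 0 by DESeq2). In valve interstitial-like cells 0 of 8 passed, where 0.406% of 7150 genes did (2 unadjusted, 0 by DESeq2), and in fibroblast-like cells 0 of 9, where 0.163% of 9203 did (2 unadjusted, 0 by DESeq2). In mural-like cells 0 of 9 passed, where 0.0329% of 6088 did (1 unadjusted, and 1 by DESeq2, Tnc). In endocardial-like cells 1 of 6 passed, where 0.300% of 8346 did. In vascular endothelial-like cells 0 of 4 passed, where 0% of 4106 did (0 unadjusted, 0 by DESeq2, which called 6 genes there). In valve endothelial-like cells 0 of 7 passed, where 0.0216% of 4631 did (0 unadjusted, 0 by DESeq2), and in cardiomyocyte-like cells 0 of 9, where 1.14% of 11165 did (5 unadjusted, and 1 by DESeq2, Tgfbi).

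Cyr61 was the member that passed, and it rose in endocardial-like cells, the lining of the chambers. There it ranged from 112 to 589 CPM with a median of 248.6 in KO libraries, against 69.7 to 213 CPM with a median of 104 in WT libraries. The groups overlapped, with 5 of 8 KO libraries above every WT library. The highest KO library was replicate 4 (tm4a), whose next neighbour stood at 282, and the highest WT library was replicate 2, whose next neighbour stood at 126. The fold change was 1.16 log2 (SE 0.26, edgeR adjusted p = 0.0493). WT replicate 5, the only WT library on the KO flow cell, held 93.9 CPM, under all 8 KO libraries. With flow cell as a covariate the change was 1.44 with an adjusted p of 0.451, and with counts summed per litter 1.04 with 0.282.

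Single libraries decided the call of Cyr61. Leaving out 1 library at a time gave 0.89 to 1.37 log2, and 5 of 15 fits passed (those without WT replicates 1, 2 or 3 or KO replicates 1 or 6). Without WT replicates 4, 5, 6 or 7 the adjusted p was 0.0691, 0.102, 0.105 and 0.0976. Without KO replicates 2, 3, 5, 7 or 8 it was 0.0638, 0.0713, 0.0849, 0.102 and 0.101, and without KO replicate 4 it was 0.084.

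Both endocardial-like clusters held more Cyr61 in KO. The cluster led by Ednrb, Emcn and Npr3 held 276 ± 170 CPM in KO and 111 ± 54.6 CPM in WT, and the one led by Emcn, Klhl4 and Ednrb held 221 ± 77.1 and 142 ± 54.8 CPM. Thinned to 1000 UMIs, 14.53% of KO endocardial-like cells (95% exact interval 13.0 to 16.1) and 10.2% of WT ones (8.74 to 11.7) had a Cyr61 UMI, where the interval covers counting error over cells only. In macrophage-like cells the shares were 7.52% in KO and 6.98% in WT, and the levels 113 ± 68.6 and 80.4 ± 37.0 CPM.

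Some immediate early and heat shock genes, a group that cell dissociation is known to raise, rose in the same cells. In endocardial-like cells 2 of 20 of that list passed, both higher in KO, Jun (0.76 log2, SE 0.17, adjusted p = 0.0493) and Rhob (1.30, SE 0.22, adjusted p = 0.0115), and its median was 0.48 against -0.01 over all tested genes. Its summed level in those cells was 5641 to 17093 CPM in KO and 4411 to 8976 CPM in WT. In cardiomyocyte-like cells 2 of 20 also passed, both higher in KO, Atf3 (0.92, adjusted p = 0.0109) and Ier3 (0.73, 0.0172), with a median of 0.22. In valve interstitial-like cells 0 of 20 passed by edgeR and by DESeq2 (10 and 9 with an unadjusted p under 0.05), with a median of 0.46. Medians in the other 4 classes were 0.11 to 0.24. In endocardial-like cells KO replicate 4 held the highest sum, and KO replicate 6 held the lowest KO sum and also the lowest KO level of Cyr61. The part of these genes in the Cyr61 difference was not tested.

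In the other classes Cyr61 did not pass. Its log2 change was 0.61 in the valve interstitial-like class (SE 0.22, adjusted p = 0.209), 0.53 in mural-like (SE 0.26, 0.506), 0.42 in cardiomyocyte-like (SE 0.19, 0.269) and 0.38 in fibroblast-like cells (SE 0.18, 0.330). It was -0.01 in vascular endothelial-like (SE 0.21, 0.999) and -0.19 in valve endothelial-like cells (SE 0.22, 0.827). Its planned class comparisons, valve interstitial-like minus fibroblast-like and minus endocardial-like cells, gave a KO minus WT difference of 0.26 and -0.45 log2 (two-sided permutation test, adjusted p = 0.459 and 0.438 over 18 tests). In 3 comparisons chosen after the values were seen, the endocardial-like change exceeded that in valve endothelial-like cells by 1.19 log2 (permutation adjusted p = 0.000699). It exceeded that in vascular endothelial-like cells by 1.05 (0.000466) and that in cardiomyocyte-like cells by 0.70 (0.00264). These p-values were adjusted over the 3 comparisons only. The choice took in the classes with the lowest changes, so the p-values are descriptions and do not show a rise particular to endocardial-like cells. Leaving out each library in turn kept these 3 differences within 1.01 to 1.31, 0.95 to 1.12 and 0.65 to 0.79.

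**Figure D2:**
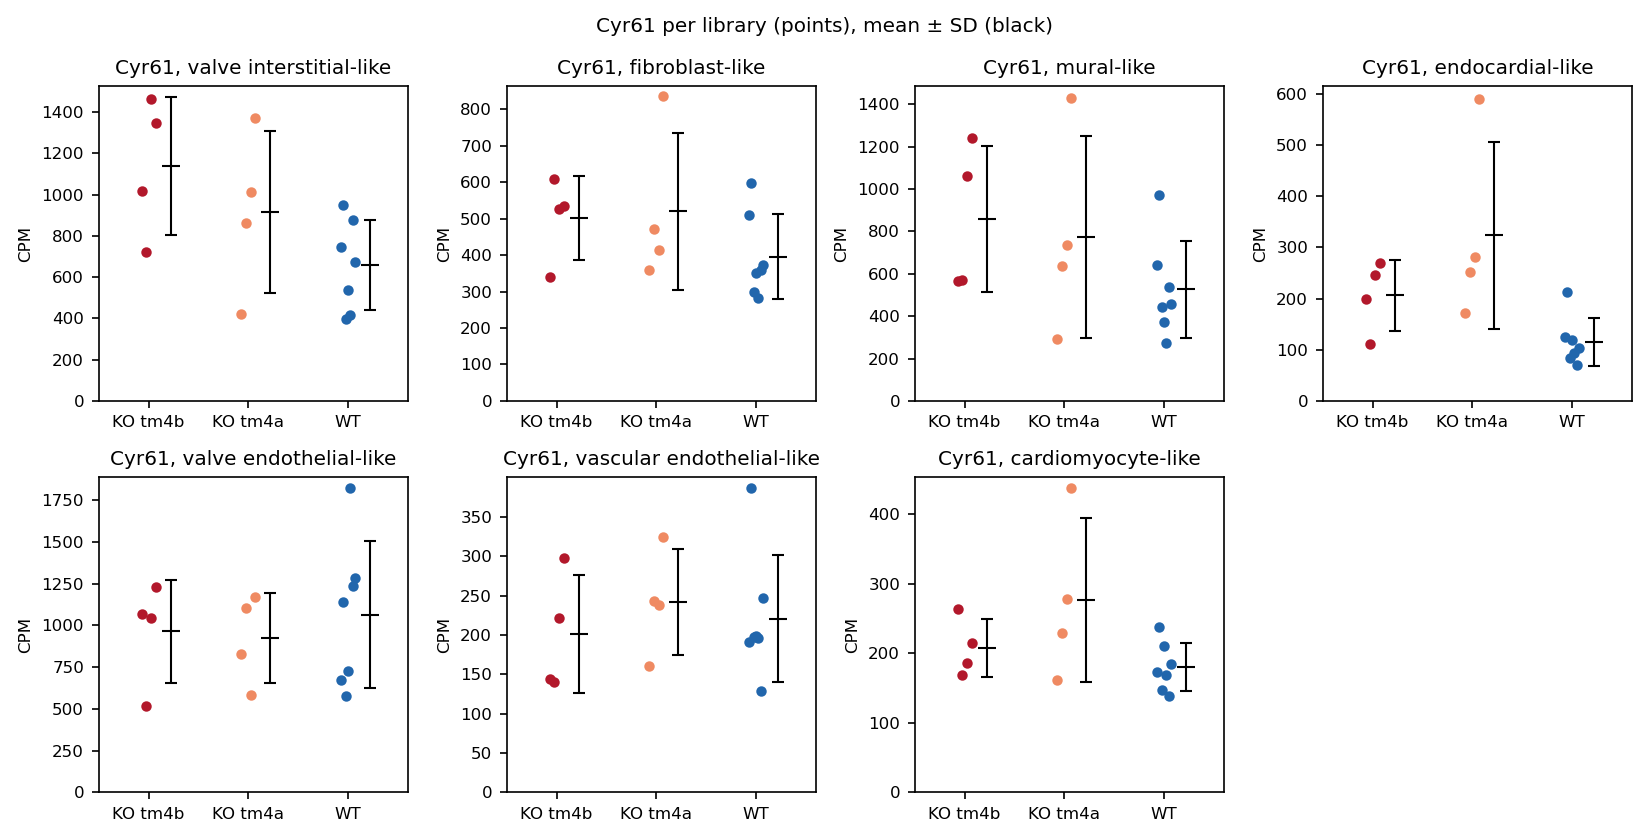
Cyr61 level (CPM of the class, linear axis from 0) in each library, by class, for KO tm4b (n = 4), KO tm4a (n = 4) and WT (n = 7), with mean ± SD in black. In endocardial-like cells 5 of the 8 KO points lie above every WT point and KO replicate 4 stands at 589 CPM, whereas in valve endothelial-like and vascular endothelial-like cells the groups lie over each other.

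Ctgf, the other CCN gene, did not pass. In endocardial-like cells its level was 37.0 ± 22.3 CPM in KO and 19.4 ± 15.4 CPM in WT (0.82 log2, SE 0.44, adjusted p = 0.446), and in cardiomyocyte-like cells 180 ± 34.5 and 133 ± 30.3 CPM (0.43, SE 0.15, adjusted p = 0.146). Set against WT replicates 5 to 7 only, Ctgf passed in 4 tests, at 2.12 log2 in endocardial-like cells, 1.02 in fibroblast-like, 0.64 in cardiomyocyte-like and 0.71 in all cells. The share of all genes that passed in those fits is not given here. Among the alternatives, single fits called up to 976 genes over all cells and up to 520 in endocardial-like cells, where the main fit called 28 and 25. Its valve interstitial-like level was 375 ± 147 CPM in KO and 335 ± 130 in WT (0.14, SE 0.23, adjusted p = 0.831).

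None of the genes that are high in valve mesenchyme passed there. In valve interstitial-like cells Postn changed by 0.15 log2 (SE 0.13, adjusted p = 0.648), Cthrc1 by 0.29 (SE 0.15, 0.409), Tgfbi by -0.18 (SE 0.17, 0.676), Tnc by 0.11 (SE 0.23, 0.870), Sparc by 0.13 (SE 0.13, 0.683) and Thbs1 by -0.34 (SE 0.16, 0.338). For Tnc the KO group pools tm4a libraries at 103 to 190 CPM and tm4b libraries at 274 to 403 CPM, with WT libraries at 151 to 333 CPM. Smoc2 was too low in that class to be tested. Without WT replicate 1, at 1390.2 CPM the highest of its group, Thbs1 changed by -0.17 (adjusted p = 0.608). Without KO replicate 4, at 309.5 CPM the lowest of its group, Tgfbi changed by -0.06 (0.885), and without WT replicate 7 by -0.07 (0.904). The members' median in that class was 0.14, against -0.03 over all tested genes.

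Tnc had the highest fold in mural-like cells and did not pass by edgeR: 194 ± 91.7 CPM in KO, 85.7 ± 32.7 CPM in WT (1.02 log2, SE 0.25, adjusted p = 0.113). It passed by DESeq2 (1.04, adjusted p = 0.0485), and by edgeR with no filter on low counts (1.05, 0.0265) or without KO replicate 3 (1.14, 0.0419). KO replicate 4 had only 21 mural-like cells. The value depended on which cells were called mural-like, since it was 0.17 (adjusted p = 0.912) at the finer clustering and 0.21 (0.856) with called doublets kept.

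In cardiomyocyte-like cells Tgfbi, Postn and Thbs1 had low levels, and none passed by edgeR. Tgfbi ranged from 2.08 to 6.836 CPM with a median of 5.56 in KO libraries and from 6.841 to 13.7 CPM with a median of 8.08 in WT libraries. All 8 KO libraries were below all 7 WT libraries, though the nearest pair nearly met, and the share of all genes without such overlap is not given. The change of -0.86 log2 missed the threshold (SE 0.22, edgeR adjusted p = 0.0589) but passed by DESeq2 (-0.87, adjusted p = 0.0138). Postn stood at 23.3 ± 9.99 CPM in KO and 37.0 ± 17.9 CPM in WT (-0.65, SE 0.27, adjusted p = 0.225), and Thbs1 at 9.57 ± 3.85 and 15.3 ± 6.24 CPM (-0.68, SE 0.25, 0.178). Among matrix partners of the members, 3 of 14 fell there, Col1a1 (-1.07, adjusted p = 0.0247), Col6a1 (-0.81, 0.0294) and Loxl1 (-0.67, 0.0352). In the same cells the summed level of the 11 fibroblast markers was 315 ± 20.1 CPM in KO (275 to 334) and 378 ± 61.1 CPM in WT (309 to 483), and that of the 12 valve interstitial markers 234 ± 21.9 CPM in KO (194 to 263) and 287 ± 109 CPM in WT (148 to 433), with no marker of either list at 0. The summed level of the cardiomyocyte markers in fibroblast-like cells was 2058 ± 643 CPM in KO and 3279 ± 914 CPM in WT. RNA from other cells in the droplets was not modelled, and its part in these values was not tested.

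Cthrc1 gave the only planned class difference that passed. The gap between valve interstitial-like and endocardial-like cells was 5.83 log2 in KO and 5.13 log2 in WT libraries, a difference of 0.70 (two-sided permutation test, p = 0.00218, adjusted p = 0.0392 over 18 tests). The endocardial-like level was 4.59 to 15.8 CPM in KO and 11.6 to 20.9 CPM in WT, where 1.31% of KO and 1.53% of WT cells had a UMI after thinning. In macrophage-like cells the shares were 1.00% in KO and 1.96% in WT, so the endocardial-like share was above theirs in KO and below it in WT. The endocardial-like level is thus not told apart from background, and the part of background in the difference was not tested. The difference stayed between 0.64 and 0.80 without any 1 library but passed in 6 of 15 such fits. It passed without WT replicate 2, 5, 6 or 7 or KO replicate 4 or 6 and missed without any of the other 9 (adjusted p = 0.0734 to 0.0839), and it was lost at the finer clustering.

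**Figure D3:**
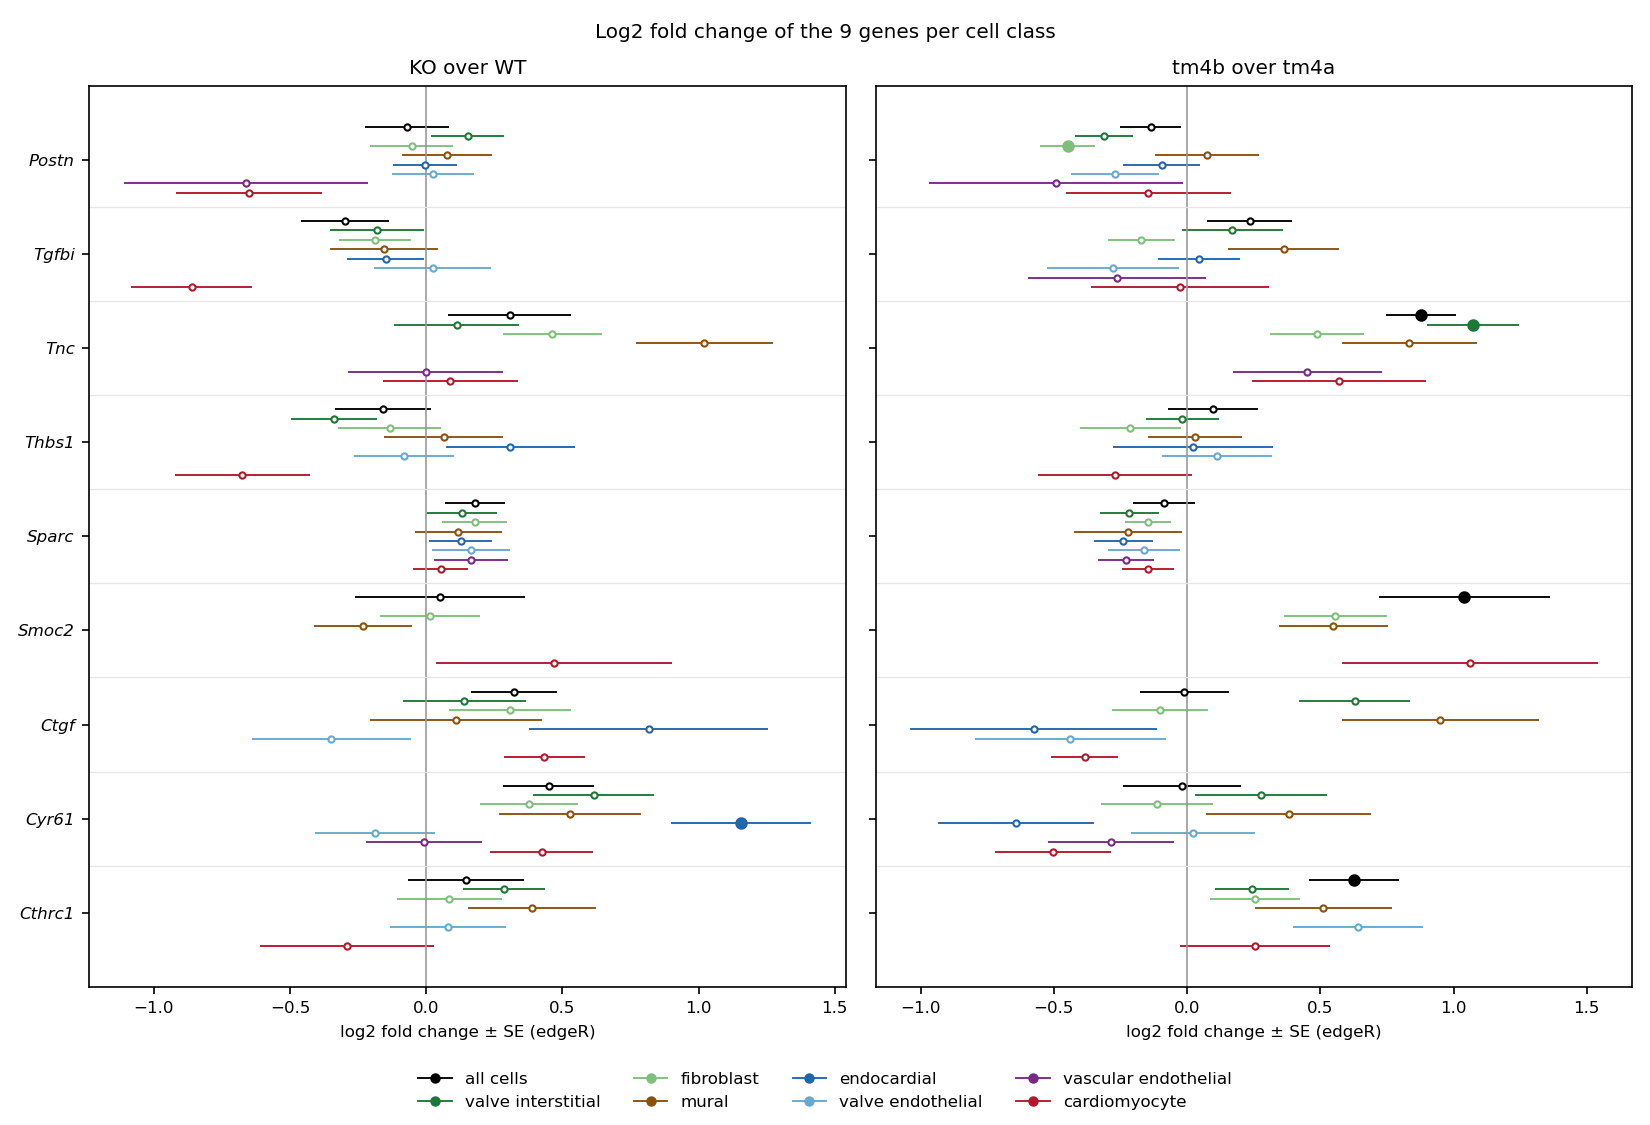
Log2 fold change with its standard error (horizontal bars) for each gene and class, KO over WT on the left and tm4b over tm4a on the right; colours are classes, filled points passed an edgeR adjusted p of 0.05, and pairs too low to test have no point. On the left the only filled point is Cyr61 in endocardial-like cells at 1.16, and on the right Tnc, Smoc2 and Cthrc1 have filled points above 0 and Postn one at -0.45.

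The genes tied to the members by function moved in few places between KO and WT. Over all cells 0 of 18 tested integrins and other receptors passed by edgeR and by DESeq2 (4 with an unadjusted p under 0.05 by each), and 0 of 15 other matricellular genes (3 by each). For the TGF-beta response genes the count was 0 of 17 (4 by each), and for the matrix partners 0 of 14 (3 by each). The highest receptor was Itgb1, at 779.7 ± 166 CPM in KO and 706 ± 97.6 CPM in WT, and the highest other matricellular gene Fstl1, at 988 CPM in KO and 1018 CPM in WT. Col3a1 (1971 CPM in KO and 1413 in WT) and Acta2 (1026 in KO and 1027 in WT) led the other lists. Among the YAP and TAZ targets, F3, encoding tissue factor, rose over all cells to 23.5 ± 6.62 CPM in KO, against 12.9 ± 1.76 CPM in WT (0.83 log2, SE 0.16, adjusted p = 0.0435). Axl, a receptor tyrosine kinase on the same list, fell in valve interstitial-like cells to 32.3 ± 4.31 CPM in KO, against 60.4 ± 17.7 CPM in WT (-0.90, SE 0.20, adjusted p = 0.0445). Loxl1, an elastin cross-linking enzyme among the matrix partners, fell in the same cells to 90.9 ± 30.2 CPM in KO, against 175 ± 39.5 CPM in WT (-0.96, SE 0.19, adjusted p = 0.0202). The YAP and TAZ list had a median of -0.01 in endocardial-like cells, the class in which Cyr61 rose. There 0 of 13 tested genes passed by edgeR (2 with an unadjusted p under 0.05, and 1 by DESeq2, Igfbp3). The part of YAP and TAZ in the Cyr61 difference was not tested.

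The KO alleles differed from each other in Tnc, Postn, Cthrc1 and Smoc2, in a comparison where many other genes differed too. tm4b over tm4a, 5 of 62 tested member and class pairs passed, and 19 had an unadjusted p under 0.05. These pooled counts alone do not set the members apart. The shares of all genes that passed follow by class, and those for an unadjusted p are not given. Nor is the share of all genes in which the tm4b and tm4a libraries did not overlap. A lack of overlap below therefore does not set a member apart either. Over all cells 3 of 9 members passed by edgeR and 2 by DESeq2, which did not call Smoc2, all higher in tm4b, where 15.3% of 13531 tested genes did by edgeR. In valve interstitial-like cells 1 of 8 passed, where 3.45% of 6865 did, and in fibroblast-like cells 1 of 9, where 9.25% of 9177 did. In mural-like cells 0 of 9 passed, where 0.393% of 6618 did (3 unadjusted, 0 by DESeq2), and in endocardial-like cells 0 of 6, where 0.597% of 8547 did (2 unadjusted, 0 by DESeq2). In vascular endothelial-like cells 0 of 5 passed, where 1.41% of 4813 did (1 unadjusted, 0 by DESeq2), and in valve endothelial-like cells 0 of 7, where 0.598% of 4847 did (1 unadjusted, 0 by DESeq2). In cardiomyocyte-like cells 0 of 9 passed, where 11.8% of 11123 did (3 unadjusted, and 1 by DESeq2, Ctgf). tm4b is 1 litter and tm4a 2 others, so allele and litter cannot be told apart.

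Tnc was higher in tm4b valve interstitial-like cells. The 4 tm4b libraries (KO replicates 5 to 8) held 403, 274, 344 and 376 CPM, against 149, 188, 190 and 103 CPM in the 4 tm4a libraries (KO replicates 1 to 4). The groups did not overlap. The 7 WT libraries lay from 151 to 333 CPM with a median of 258, so 3 tm4b libraries were above every WT library and 2 tm4a libraries below every one. The change was 1.07 log2 (SE 0.17, edgeR adjusted p = 0.00276), and it passed without any 1 library (0.95 to 1.17). Thinned to 1000 UMIs, 24.1% of tm4b and 10.8% of tm4a cells of the class had a Tnc UMI, at median depths of 1385 and 1081 UMIs. Before thinning the shares were 27.9% in tm4b and 13.5% in tm4a, and in macrophage-like cells they were 0.294% in tm4b and 0.932% in tm4a, at median depths of 1366 and 1269 UMIs.

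Over all cells Tnc stood at 65.2, 77.5, 93.8 and 99.7 CPM in tm4b and 44.1, 39.2, 37.9 and 46.9 CPM in tm4a libraries (0.88 log2, SE 0.13, adjusted p = 0.0036), again with no overlap and in every leave-one-out fit. Fibroblast-like cells held 242 ± 39.4 CPM in tm4b and 166 ± 51.6 CPM in tm4a (0.49, SE 0.18, adjusted p = 0.0888), and mural-like cells 221 ± 46.6 and 166 ± 124 CPM (0.83, SE 0.25, adjusted p = 0.110). The mural-like tm4a mean includes KO replicate 4 at 348 CPM, from 9 Tnc UMIs in 21 cells, while the other tm4a libraries held 73.6 to 140 CPM. Whether the allele difference in Tnc varies between classes was not tested.

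Postn went the other way. In fibroblast-like cells the tm4b libraries held 1434, 1879.8, 1942 and 1997 CPM, against 2415, 2074, 2297 and 2610.1 CPM in tm4a. The groups did not overlap, while WT libraries ranged from 1411 to 2971 CPM with a median of 2155. Postn fell in tm4b by 0.45 log2 (SE 0.10, adjusted p = 0.0126), and it passed without any 1 library. In valve interstitial-like cells, where it is highest, tm4b held 4061 ± 405 CPM and tm4a 4885 ± 116 CPM, without overlap but with an adjusted p of 0.112 (-0.31, SE 0.11).

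Cthrc1 and Smoc2 passed over all cells and in no single class. Cthrc1 stood at 117, 141, 161 and 156 CPM in tm4b and 99.9, 89.4, 101 and 52.1 CPM in tm4a libraries (0.63 log2, SE 0.17, adjusted p = 0.0288). The groups did not overlap, and KO replicate 4 held the lowest value. It passed without KO replicate 1, 3, 4 or 5, at 0.46 without KO replicate 4, and missed without KO replicate 2, 6, 7 or 8 (adjusted p = 0.0583, 0.0595, 0.0835 and 0.0694). In its main class, the valve interstitial-like cells, it held 1278 ± 138 CPM in tm4b and 1042 ± 213 CPM in tm4a (0.24, SE 0.14, adjusted p = 0.337). In fibroblast-like cells Cthrc1 held 160 ± 30.4 CPM in tm4b and 126 ± 32.1 CPM in tm4a (0.25, SE 0.17, adjusted p = 0.368), but the change was 0.78 (0.0366) at the finer clustering and 0.77 (0.0429) with called doublets kept.

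Smoc2 stood at 49.3, 48.4, 76.4 and 94.3 CPM in tm4b, against 25.0, 47.1, 36.5 and 10.6 CPM in tm4a libraries (1.04 log2, SE 0.32, adjusted p = 0.0474). The groups met without overlapping, with 48.4 the lowest tm4b and 47.1 the highest tm4a value. It passed without KO replicate 2 or 4 and missed without KO replicate 1, 3, 5, 6, 7 or 8 (adjusted p = 0.111, 0.0734, 0.0503, 0.0575, 0.117 and 0.132), and DESeq2 did not call it (adjusted p = 0.0801). In fibroblast-like cells Smoc2 held 69.7 ± 9.74 CPM in tm4b and 44.0 ± 15.1 CPM in tm4a (0.56, SE 0.19, adjusted p = 0.0769). It passed there at the finer clustering (0.88, 0.00906), with called doublets kept (0.77, 0.0159), without TMM factors (0.63, 0.0468), with no filter on low counts (0.56, 0.0445) and without KO replicate 3 (0.71, 0.0475). Within mural-like cells Smoc2 held 306 ± 61.5 CPM in tm4b and 188 ± 57.8 CPM in tm4a (0.55, SE 0.20, adjusted p = 0.181), and in cardiomyocyte-like cells 44.1 ± 25.4 and 18.3 ± 19.8 CPM (1.06, SE 0.48, adjusted p = 0.164). Mural-like cells, where its level was highest among the 7 classes, made up 8.02% ± 3.30 of tm4b and 4.20% ± 2.69 of tm4a cells, and 0.812% in KO replicate 4. Epicardial-like cells made up 4.42% ± 0.549 and 3.35% ± 1.21. Cardiomyocyte-like cells, with a lower level of Smoc2, were more numerous, at 35.6% ± 4.35 of tm4b and 40.6% ± 3.72 of tm4a cells. Valve interstitial-like cells, the main source of Cthrc1, made up 8.61% ± 1.19 and 7.74% ± 1.51. The part of cell makeup in the all-cell values was not tested.

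**Figure D4:**
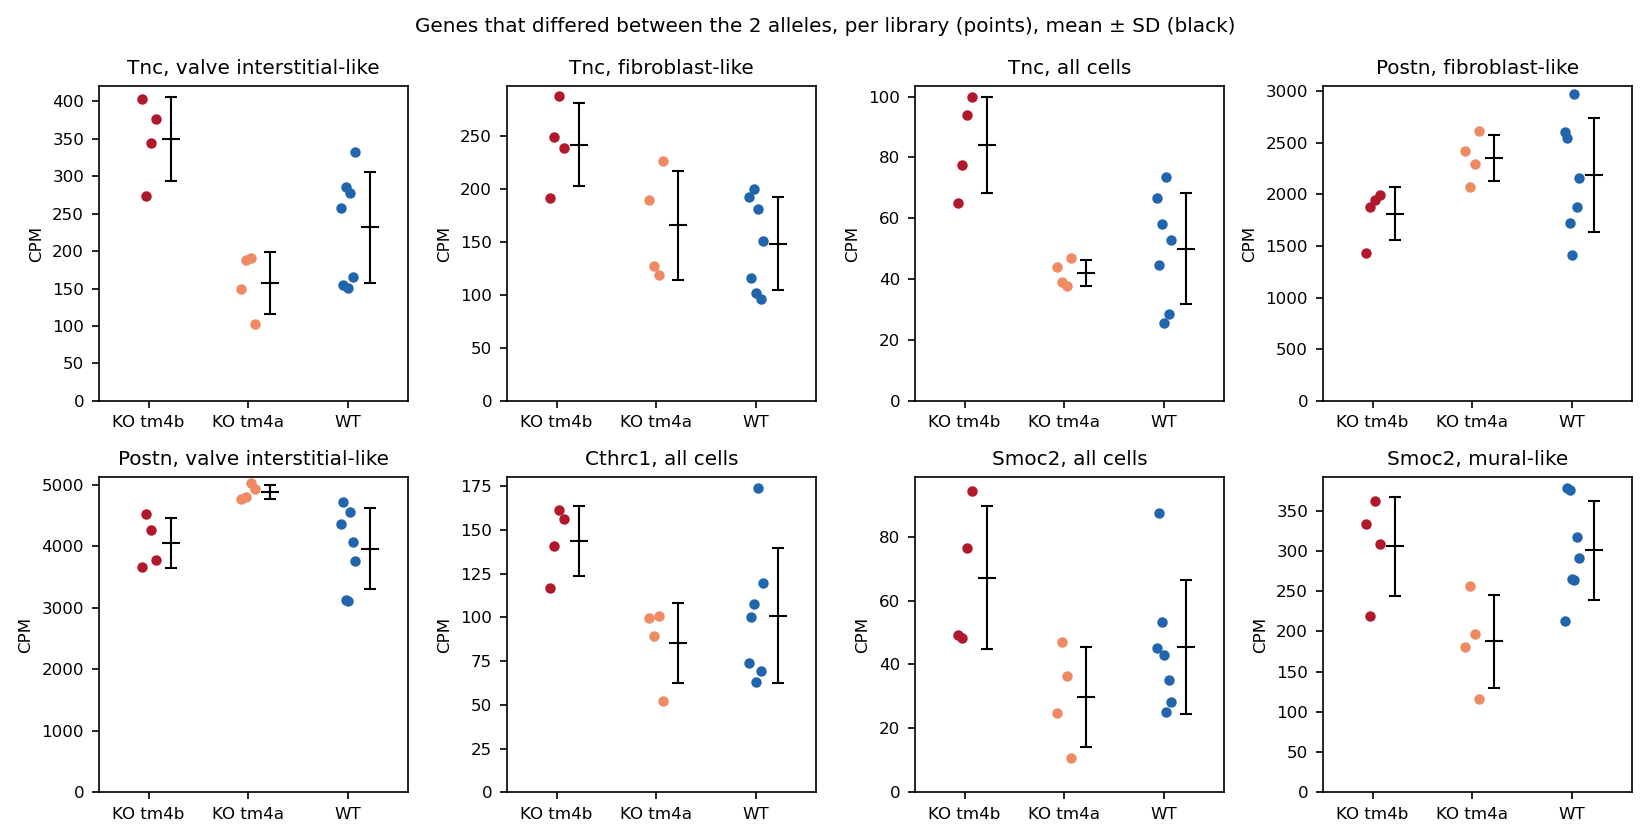
Level (CPM, linear axes from 0) of Tnc, Postn, Cthrc1 and Smoc2 in each library of KO tm4b (n = 4), KO tm4a (n = 4) and WT (n = 7), in the classes named above each panel, with mean ± SD in black. The tm4b points lie above all tm4a points for Tnc in valve interstitial-like and all cells and below them for Postn, and for Tnc 3 of the 4 tm4b points lie above every WT point in both panels.

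Of the receptors that these proteins bind, 4 of 18 tested rose over all cells in tm4b and 0 fell, Itgb1, Itga8, Cd47 and Egfr, in a comparison where 15.3% of all genes passed. Itgb1, the beta-1 integrin subunit shared by most matrix receptors, held 933 ± 23.0 CPM in tm4b and 627 ± 38.6 CPM in tm4a (0.46 log2, SE 0.08, adjusted p = 0.00661), with WT at 706 ± 97.6 CPM. It also rose in valve interstitial-like (0.48), fibroblast-like (0.49), vascular endothelial-like (0.64) and cardiomyocyte-like cells (0.43). Of 14 matrix partners, 5 rose over all cells and 0 fell, Col3a1, Col4a2, Col5a1, Bmp1 and Lox, with a median of 0.41 for the list against 0.02 over all tested genes. Lox, the collagen cross-linking enzyme, held 108 ± 34.3 CPM in tm4b and 43.8 ± 20.7 CPM in tm4a (1.18, SE 0.30, adjusted p = 0.023), with WT at 76.1 ± 36.7 CPM. In valve interstitial-like cells 1 of 14 matrix partners passed, Col6a1, which fell in tm4b (-0.69, SE 0.16, adjusted p = 0.0213). In fibroblast-like cells Lox (1.06, adjusted p = 0.00178) and Col4a2 (0.51, 0.0136) rose, and in vascular endothelial-like cells Col4a2 did (0.63, 0.0255).

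Of the YAP and TAZ targets, 3 of 19 tested rose over all cells in tm4b and 0 fell, again beside 15.3% of all genes. Igfbp3, encoding a binding protein of insulin-like growth factors, held 54.6 ± 15.2 CPM in tm4b and 31.0 ± 7.49 CPM in tm4a (0.68 log2, SE 0.21, adjusted p = 0.0480). Myof, encoding the membrane repair protein myoferlin, held 26.7 ± 3.52 CPM in tm4b and 16.7 ± 2.26 CPM in tm4a (0.55, adjusted p = 0.0173), and Fjx1 8.23 ± 3.68 and 3.52 ± 0.294 CPM (1.08, adjusted p = 0.0292). These values are from edgeR, and DESeq2 called Igfbp3, Myof and Rbms3 but not Fjx1. Of the TGF-beta response genes 0 of 17 passed over all cells by edgeR (4 with an unadjusted p under 0.05) and 2 by DESeq2, Tgfb3 and Acta2. Smad7, an inhibitor of the pathway, rose in valve interstitial-like cells by edgeR (0.89, adjusted p = 0.0411), but DESeq2 called only Id1 of the list there. Ltbp2, encoding a fibrillin-binding protein, rose in fibroblast-like cells by edgeR (1.24, 0.0253), where DESeq2 called 0 of the list. Acta2 fell in cardiomyocyte-like cells (-0.37, 0.0362 by edgeR) and was also called by DESeq2. Of the other matricellular genes 0 of 15 passed over all cells by edgeR and by DESeq2 (3 and 2 unadjusted).

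The immediate early and heat shock genes went different ways by class. Over all cells 3 of 20 fell in tm4b (Ier3, Hsp90aa1 and Hspa8) and 0 rose, a share close to that of all genes. The same 3 fell in fibroblast-like cells, and with Zfp36 in cardiomyocyte-like cells, where Rhob rose. In fibroblast-like cells DESeq2 called only Hsp90aa1 and Hspa8 of the list. Zfp36 fell in endocardial-like cells (-1.05, edgeR adjusted p = 0.0342). Jun rose by edgeR in valve interstitial-like cells (1.07, 0.0427), the class in which Tnc was higher, but DESeq2 called 0 of the list there. A link between Jun and the Tnc difference was not tested. The median of the list was 0.33 in valve interstitial-like, -0.33 in fibroblast-like and -0.49 in endocardial-like cells.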

How the data were processed

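The deposited table holds UMI counts per gene and cell barcode, joined over libraries by the authors. The submitters' processing notes name bcl2fastq 2.17, Seurat 2.1 and the mm10 build; the sources used here do not give the aligner, and 0 columns belonged to no sample. Cells with at least 300 genes and at most 30% mitochondrial UMIs were kept. Scrublet marked 124 cells (0.244%) as doublets, too few for a caller that works, so doublets may remain. Clustering (scanpy 1.11.5, 2000 variable genes without the 9 members, 30 components, Leiden 1.0) gave 21 clusters, named by marker lists. UMIs were summed per library and class (at least 10 cells) and tested with edgeR 4.0.16 (quasi-likelihood, TMM, filterByExpr, Benjamini-Hochberg over all genes of the class, 0.05). The standard error is the fold divided by the square root of F. DESeq2 1.42.0, other filters, scalings, clusterings and left-out libraries were alternatives. P-values measure the spread between libraries. Intervals cover counting error only.

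The script was tested on simulated counts. Members and lists were chosen with earlier results of these data known. Named genes are all members, the 3 genes most correlated with each, and from the other lists those past the threshold or, where none was, up to 3 of the highest level. Clustering and tests used the same cells.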

Additional observations from a re-analysis of the deposited data

Results flagged for a closer look

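Each group of libraries was searched for 1 sample standing far from the others, and 12 of 124 groups held one. The cut-off flags about 1 in 20 groups of independent, normally distributed values. The groups here share libraries, and all cells include the classes, so the count cannot be set against that rate. WT replicate 2 stood high for Sparc over all cells (2854 CPM, others 1617 to 2150.0), in valve interstitial-like cells (3478 CPM, others 2130.3 to 2539) and in endocardial-like cells (2324 CPM, others 1518 to 1789). The same library stood high for Ctgf in mural-like cells (634 CPM, others 191 to 354), for Cyr61 in endocardial-like cells (213 CPM, others 69.7 to 126) and for Smoc2 in cardiomyocyte-like cells (53.4 CPM, others 8.53 to 27.7).

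KO replicate 4 stood high for Cyr61 in endocardial-like (589 CPM, others 112 to 282) and cardiomyocyte-like cells (437 CPM, others 162 to 278). It stood low for Tgfbi in valve interstitial-like cells, at 309.5 CPM where the other KO libraries held 710.2 to 863 CPM. KO replicate 8 was low for Tgfbi in valve endothelial-like cells (50.4 CPM, others 92.3 to 111). WT replicate 1 was high for Thbs1 in valve interstitial-like cells (1390.2 CPM, others 542 to 838), and WT replicate 5 for Postn in vascular endothelial-like cells (240.4 CPM, others 14.2 to 104).

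For Cthrc1, the effect of genotype differed between valve interstitial-like and endocardial-like cells by 0.70 log2 in a direct permutation test (adjusted p = 0.0392). The endocardial-like level is not told apart from background, and the test passed in 6 of 15 fits without 1 library and missed at the finer clustering.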

How the results depend on the processing

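The count of member and class pairs that passed KO over WT was 1. It was 0 with flow cell as a covariate, with counts summed per litter or without TMM factors, 2 with no filter on low counts, at Leiden resolution 1.5, without the 5% highest doublet scores or with the members among the variable genes, 3 by DESeq2, and 5 against WT replicates 5 to 7 only. It ranged from 0 to 2 over fits without 1 library. tm4b over tm4a, the count of 5 became 12 with no filter and ranged from 3 to 8 without 1 library. Of the order of levels, 41 of 54 steps passed over all 15 libraries in place of 27, and 0 without any 1 WT library. With 1 WT library fewer, the smallest p that the sign-flip test allows rises above 0.0156, so that 0 cannot show a changed order. The class differences that passed, 1 in all, were 0 at resolution 1.5 and 0 to 2 without 1 library. Over all genes of all cells, 28 passed KO over WT, and 2 to 976 under the other alternatives. No direction of a called value turned. The causes were not tested.

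With the replicate number as a block, 0 pairs passed KO over WT, and Cyr61 in endocardial-like cells changed by 1.09 (adjusted p = 0.0895). Same-numbered WT and KO libraries come from different litters, and only those numbered 5 share a flow cell. They correlated at -0.568 to 0.133 over 6996 genes, and 0 of 7 WT libraries correlated best with their own number. Such correlations cannot settle whether the numbers mark a pairing.

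Mural-like cells of KO replicate 4 (21 cells) and low levels in endothelial-like classes limit the precision, and 61 of 72 member and class pairs were tested KO over WT.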
